A study of Mus musculus with 16 samples.

Results

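The genes described here are 10 members and targets of the NF-kB system, measured by RNA sequencing in B16F10 mouse melanoma. They are the Rel factor genes Nfkb1, Nfkb2, Rela and Relb, the inhibitor and feedback genes Nfkbia, Nfkbiz, Tnfaip3 and Birc3, and the adhesion molecule genes Vcam1 and Icam1. They were taken by gene symbol from 3 tables of normalised counts, 1 for each group. The table of TDM culture listed 7 of the 10 among 13143 genes, that of TDMa culture the same 7 among 13284, and that of TDMa tumours all 10 among 14933. Birc3, Vcam1 and Icam1 in culture were not analysed here.

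B16F10 is a transplantable melanoma line. Its derivatives B16F10-TDM and B16F10-TDMa were used here, and the labels leave both suffixes unexplained. Every group carried a guide RNA: either the scramble guide (sgScramble, the control) or a guide to Nlrc5 (sgNlrc5), so the control carried a guide too. TDM cells and TDMa cells in culture had 2 libraries per guide. Tumours of TDMa cells had 4 per guide, and the labels give no host strain, age or site for them. The series title names activation of Nlrc5, a regulator of MHC class I genes, as the aim of the guide. The labels do not say whether replicates came from separate cultures or animals, so each p-value reflects only how far these samples varied, which may be technical.

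NF-kB factors are dimers of Rel proteins. Rela and Relb encode members with an activation domain, and Nfkb1 and Nfkb2 encode precursors that are processed to p50 and p52. In resting cells IkB proteins hold the dimers in the cytoplasm. Receptors for TNF, interleukin-1 and microbial products activate the IKK kinases, IkB is degraded, and the dimers enter the nucleus. Several of their target genes feed back on the pathway. Nfkbia encodes IkB alpha, Nfkbiz the nuclear regulator IkB zeta, Tnfaip3 the ubiquitin-editing enzyme A20, and Birc3 the ubiquitin ligase cIAP2. Vcam1 and Icam1 encode surface molecules on which leukocytes bind through integrins, and both are textbook targets of NF-kB in endothelium.

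Because several of these genes are known as targets of the factors they belong to, the stretches before their start sites are shown for 4 members. RefSeq windows on build GRCm38.p6 were matched by symbol for 6 of the 10 members. Each covers the 250 bases before the most upstream of the listed start sites, on the gene's strand, 5′ to 3′. Capitals mark matches, on either strand, to the kB consensus, a 10-letter motif with ambiguous positions, and to its 9-letter relative GGAAATTCC. The relative was added after the consensus had found no match in the Icam1 window. The Nfkb2 window (chr19:46304487-46304736, + strand), the Nfkbia window (chr12:55492648-55492897, − strand), the Tnfaip3 window (chr10:19015411-19015660, − strand) and the Icam1 window (chr9:21015690-21015939, + strand) read:
Nfkb2: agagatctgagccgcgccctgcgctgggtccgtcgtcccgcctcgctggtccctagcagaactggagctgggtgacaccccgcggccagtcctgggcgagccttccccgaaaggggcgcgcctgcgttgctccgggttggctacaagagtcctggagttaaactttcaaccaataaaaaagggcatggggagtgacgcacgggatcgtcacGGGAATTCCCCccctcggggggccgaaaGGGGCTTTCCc
Nfkbia: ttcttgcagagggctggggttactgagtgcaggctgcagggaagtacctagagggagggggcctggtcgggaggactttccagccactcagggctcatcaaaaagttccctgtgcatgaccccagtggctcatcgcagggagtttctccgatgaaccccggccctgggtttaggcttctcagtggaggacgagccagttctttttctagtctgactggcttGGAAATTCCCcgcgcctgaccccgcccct
Tnfaip3: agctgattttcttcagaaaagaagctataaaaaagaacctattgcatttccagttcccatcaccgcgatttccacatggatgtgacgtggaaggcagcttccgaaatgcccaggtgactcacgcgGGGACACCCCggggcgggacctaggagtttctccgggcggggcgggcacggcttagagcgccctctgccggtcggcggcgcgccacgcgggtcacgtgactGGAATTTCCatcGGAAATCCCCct
Icam1: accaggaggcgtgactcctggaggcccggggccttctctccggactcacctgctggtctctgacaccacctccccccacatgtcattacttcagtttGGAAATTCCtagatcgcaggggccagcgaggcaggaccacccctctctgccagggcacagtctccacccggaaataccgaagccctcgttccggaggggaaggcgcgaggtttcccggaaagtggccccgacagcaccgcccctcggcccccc

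In the Nfkb2 window a pair of overlapping consensus matches lay 39 to 29 bases before the start site, and another lay 11 to 2 bases before it. In the Nfkbia window the consensus matched 29 to 20 bases before the start, and the 9-letter relative lay within that match. The Tnfaip3 window held consensus matches 125 to 116 and 12 to 3 bases before the start, with the relative at 24 to 16. In the Icam1 window only the relative was found, 153 to 145 bases before the start. The Rela and Birc3 windows held neither motif. Of 32851 windows of the same length, 3.9% held the consensus and 0.286% the relative. A match describes letters in a window and was not measured as a bound site here.

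Between 12183889 and 16390886 reads per library were recovered over the listed genes. The targeted gene rose with sgNlrc5 in each group: Nlrc5 went from 17.8 to 68.0 normalised counts in TDM culture, from 248 to 3144 in TDMa culture and from 577 to 3916 in tumours, with log2 fold changes of 1.91, 3.66 and 2.88. All 11 melanocyte markers checked were listed in every table, as the label melanoma implies. In culture few markers of other cell types were listed, though the T cell gene Cd3d stood at a mean of 527 normalised counts with sgScramble and 565 with sgNlrc5 in TDM culture. Fold changes below are from limma on log2(normalised count + 1), sgNlrc5 minus sgScramble, with their standard errors (SE), and that scale understates the change of low genes. A gene passed at a Benjamini-Hochberg adjusted p under 0.05 over all genes of the table with a mean of at least 10 normalised counts. Every listed member met that minimum in each table.

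**Figure D1:**
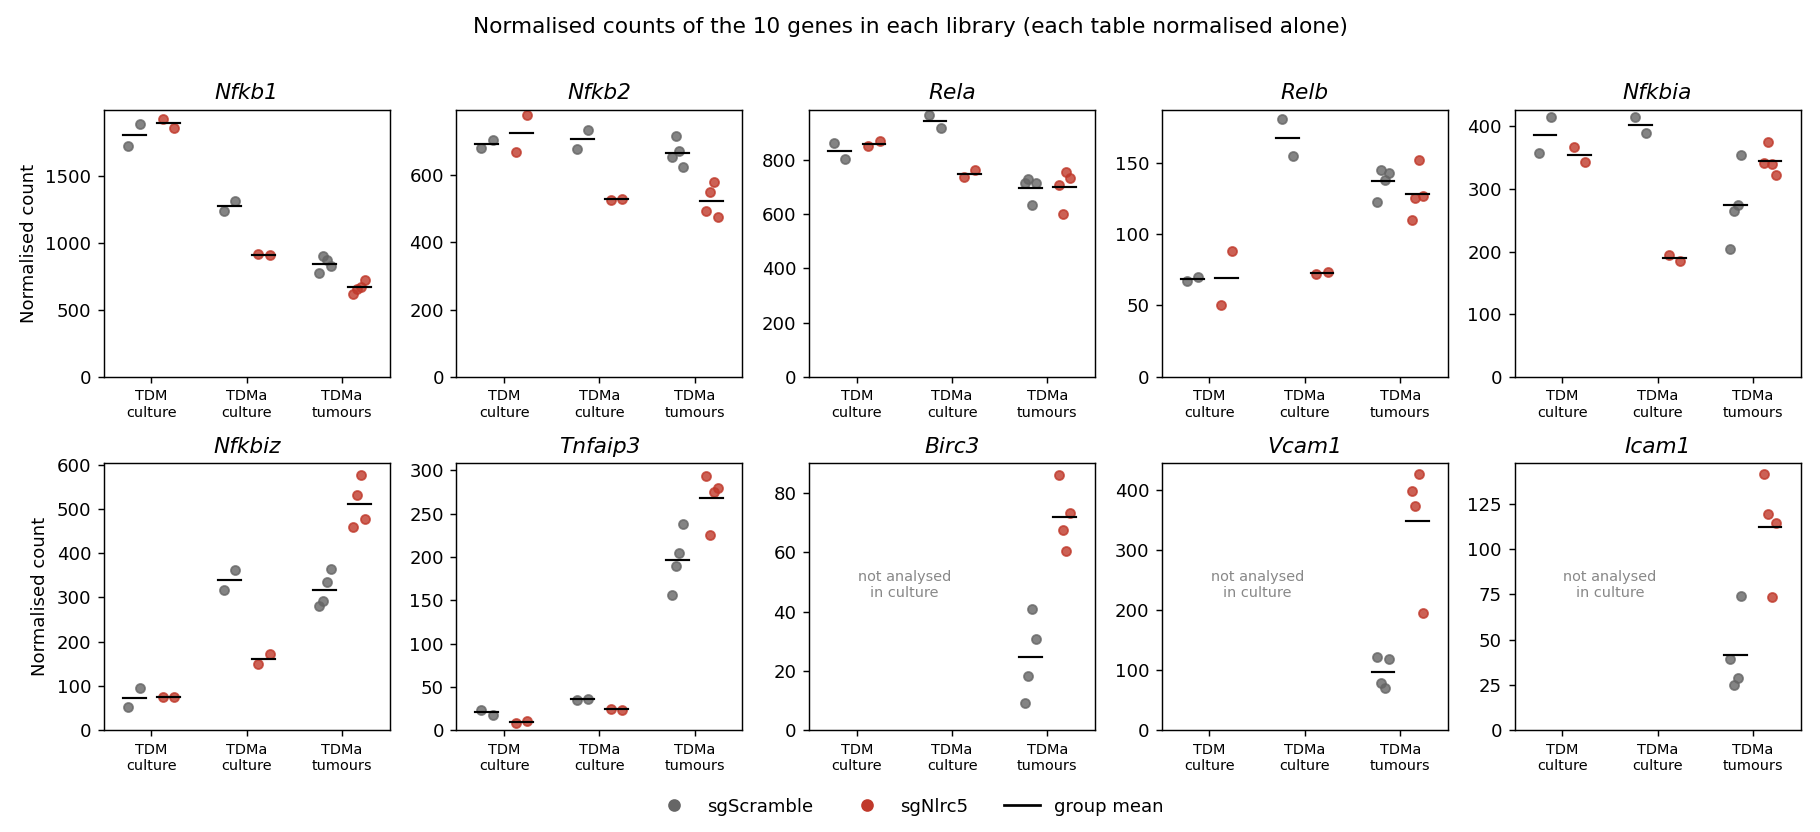
Normalised counts of the 10 genes in each library (y axis, linear from 0), by group and guide (x axis), with grey points for sgScramble, red points for sgNlrc5 and a line at each group mean. Nfkbia, Nfkbiz and Relb were lower with sgNlrc5 in TDMa culture, and Vcam1 and Birc3 higher in tumours, in every library.

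The first comparison set the guides against each other in TDM culture, where Nlrc5 itself rose by the smallest fold. None of the 7 listed members passed, against 0.517% of the 11989 genes tested (62 genes). At an unadjusted p under 0.05 there were 1084 genes, of which 1 was a member, Tnfaip3. With voom weights on the recovered reads, 64 genes and 0 members passed. The median log2 fold change was 0.05 over the 7 members and 0.00033 over all genes tested.

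None of the Rel factor genes passed in TDM culture. Nfkb1 stood at 1723 and 1886 normalised counts with sgScramble and at 1925 and 1855 with sgNlrc5, a log2 fold change of 0.07 ± 0.06 (SE, adjusted p = 0.78). Nfkb2 had 681 and 704 with sgScramble and 669 and 779 with sgNlrc5 (0.06 ± 0.08). Rela had 863 and 802 against 850.4 and 870.3 (0.05 ± 0.07). In all of these genes the guides overlapped. The 95% intervals of these log2 fold changes all lay between -0.12 and 0.24. Relb was measured less closely, at 67.0 and 70.0 against 50.6 and 88.1 (-0.04 ± 0.26, 95% interval -0.58 to 0.51).

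The feedback genes did not pass in TDM culture either. Nfkbia had 357 and 415 normalised counts with sgScramble and 367 and 343 with sgNlrc5 (-0.12 ± 0.11, adjusted p = 0.79). Nfkbiz had 52.9 and 94.4 against 75.4 and 73.9 (0.08 ± 0.26), and both sgNlrc5 values lay between the sgScramble values. Tnfaip3 had 23.8 and 18.0 against 7.87 and 10.4, the only member whose sgNlrc5 libraries both lay below both sgScramble libraries. Such a separation was found in 19.3% of the genes tested. Its fold change was -1.11 ± 0.46 (adjusted p = 0.49), and the libraries held only 7 to 27 reads of it.

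The second comparison asked the same of TDMa cells in culture, where Nlrc5 rose further, and here the NF-kB genes were lower with the guide. The genes that fell were Nfkb1, Nfkb2, Rela, Relb, Nfkbia and Nfkbiz. Relb, Nfkbia and Nfkbiz were at 0.43 to 0.47 of their sgScramble mean, and Nfkb1, Nfkb2 and Rela at 0.72 to 0.80 of theirs. Thus 6 of 7 members fell and 0 rose, in a table where 34.2% of 12138 genes passed (4156 genes) and 16.9% passed as lower. Of the genes called in TDMa culture, 2100 were higher and 2056 lower, or 1643 and 2587 with equal sums of normalised counts. In all 7 both sgNlrc5 libraries lay below both sgScramble libraries, which held for 33% of the genes tested. The median log2 fold change was -0.56 over the 7 members and -0.00064 over all genes.

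Among the Rel factors, Relb fell most. It stood at 181 and 155 normalised counts with sgScramble and at 72.0 and 73.6 with sgNlrc5, a log2 fold change of -1.19 ± 0.17 (adjusted p = 2.9e-05). Both sgNlrc5 libraries were near each other and far below the control libraries. Nfkb1, the p50 precursor gene, went from 1233 and 1309.9 to 913 and 909 (-0.48 ± 0.06, adjusted p = 2.4e-06). Nfkb2, the p52 precursor gene, went from 678 and 735 to 527 and 529.9 (-0.42 ± 0.07, adjusted p = 0.00021). Rela, which encodes p65, went from 966 and 918 to 738 and 761 (-0.33 ± 0.06, adjusted p = 0.00044). For these genes the guides differed by more than the spread between the libraries of each guide. Without the intensity trend in the variances, Rela had an adjusted p of 0.051.

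The inhibitor genes fell by more than Nfkb1, Nfkb2 and Rela in the fitted values, though differences between genes were not tested. Nfkbia had 414 and 389 normalised counts with sgScramble and 195 and 184 with sgNlrc5, a log2 fold change of -1.08 ± 0.11 (adjusted p = 3.4e-07). Nfkbiz had 317 and 362 against 149.5 and 172 (-1.07 ± 0.13, adjusted p = 2.2e-06). Both genes stood at about 0.47 of their control mean. Tnfaip3, the A20 gene, had 35.4 and 36.1 against 24.7 and 23.3 (-0.56 ± 0.31, adjusted p = 0.18), and passed only without the intensity trend (adjusted p = 0.026). It rested on 22 to 38 reads per library.

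**Figure D2:**
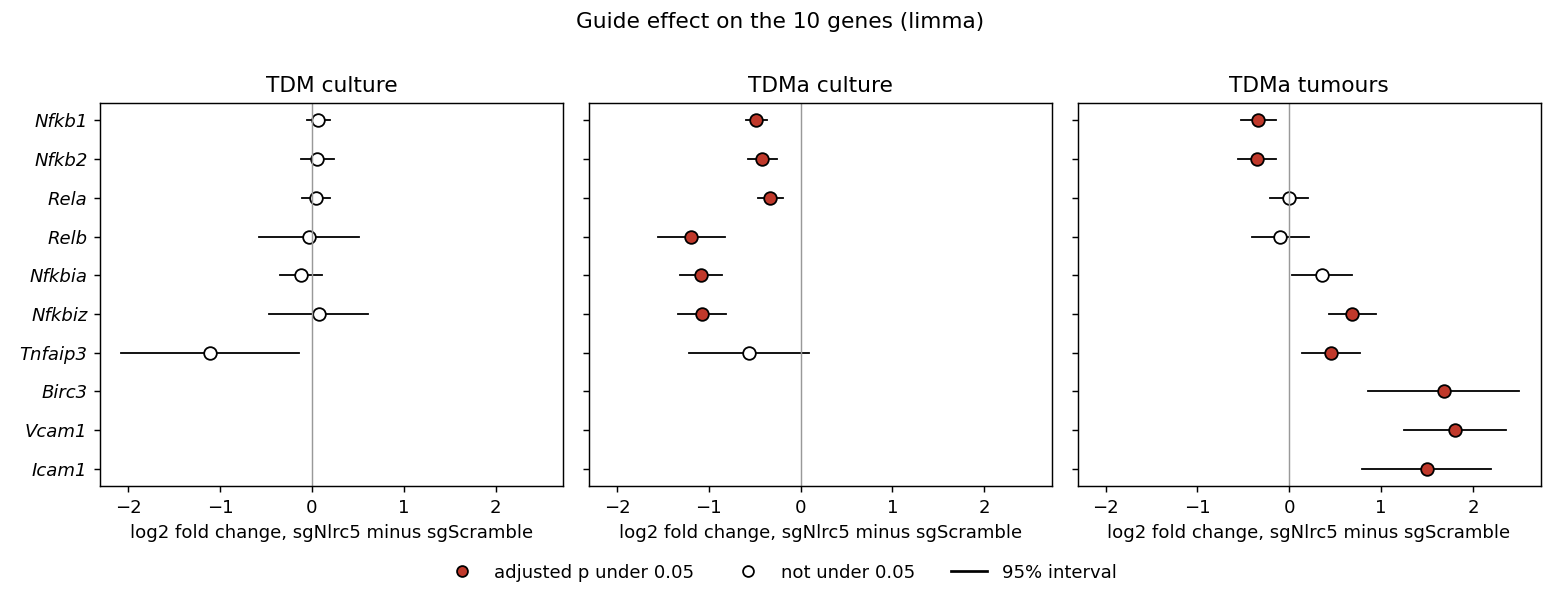
Log2 fold change, sgNlrc5 minus sgScramble (x axis), for each of the 10 genes (y axis) in the 3 groups, with 95% intervals from limma and filled points where the adjusted p was under 0.05. No point is filled in TDM culture, 6 are filled below 0 in TDMa culture, and 5 above and 2 below 0 in tumours.

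Receptor and target genes of the wider pathway were then counted in TDMa culture, where 16.9% of the genes tested passed as lower. Of 9 tested receptor genes, 6 fell and 0 rose (median log2 fold change -0.21), and 3 fell without sgScramble replicate 2. Il1r1, the interleukin-1 receptor, fell from a mean of 67.3 to 5.72 normalised counts (-3.34 ± 0.36), and its partner Il1rap from 397 to 217 (-0.87 ± 0.11). Tlr3, a sensor of double-stranded RNA, fell from 480.4 to 241 (-0.99 ± 0.10). Of 12 other NF-kB targets, 8 fell and 1 rose (median -0.59). The macrophage growth factor gene Csf1 fell by 0.90 on the log2 scale, the T cell chemokine gene Ccl5 fell by 2.23, and Zc3h12a, which encodes the RNase regnase-1, fell by 1.48. The 1 that rose, named after its value was seen, was Sod2, the mitochondrial superoxide dismutase (0.47 ± 0.05). Il1r1, the receptor gene Tlr2 (21.9 to 0 normalised counts) and the target gene Cxcl1 (65.8 to 2.73) had sgNlrc5 means under 10. They were counted as falling but met the minimum only through the sgScramble libraries.

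The signalling genes between receptor and target went in both directions in TDMa culture. None of 5 IKK complex genes passed, and their median was -0.08. Of 17 adaptors and upstream kinases, 2 fell and 1 rose (median -0.0050): Irak4 changed by -0.71, Ripk1 by -0.27 and Irak1 by 0.19. Of 13 other factors and inhibitors, 3 fell and 2 rose (median 0.04), a share near the 34.2% of all genes, among them Tnip1, an A20 partner, at -0.52, Tax1bp1 at -0.18 and the deubiquitinase gene Otud7b at 0.19. The smaller of these calls were unsteady: Irak1 and Otud7b did not pass with equal sums of normalised counts (adjusted p = 0.091 and 0.056), and Ripk1 and Tax1bp1 did not without the intensity trend (0.074 and 0.10). Irak1 was also lost without sgScramble replicate 1 (0.25) or sgNlrc5 replicate 1 (0.12) or 2 (0.061). Otud7b was lost without sgScramble replicate 1 (0.088) or 2 (0.051) or sgNlrc5 replicate 2 (0.13), and Ripk1 without sgScramble replicate 2 (0.13). None of the pathway genes on these lists passed in TDM culture, where they numbered 7 receptors, 17 adaptors and upstream kinases, 5 IKK genes, 13 other factors and inhibitors and 11 other targets.

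Of the adhesion genes other than the members, 2 rose and 1 fell in TDMa culture, a share near the 34.2% of all genes. Mcam, a melanoma adhesion molecule, fell by 0.33 on the log2 scale and Ncam1 rose by 0.61, among 9 tested, and the Ncam1 call ended without the intensity trend (adjusted p = 0.054). Cd44, the hyaluronan receptor, stood at 0.11 and passed (adjusted p = 0.017), but not with quantile normalisation (0.34), without the intensity trend (0.20), with equal sums (0.15) or without any 1 of the 4 libraries (0.057 to 0.091). Of the integrins that bind VCAM1 or ICAM1, Itga4, a subunit of the VCAM1 receptor VLA-4, fell in each culture group: from 4694 to 3408 normalised counts in TDM (-0.47 ± 0.06, adjusted p = 0.00038) and from 2777 to 2210 in TDMa (-0.33 ± 0.04, adjusted p = 4.7e-06). In TDM culture the Itga4 call ended without the intensity trend (adjusted p = 0.44). Its partner subunit gene Itgb1 fell in TDMa culture from 10380 to 9575 (-0.12 ± 0.03), a call that ended without the intensity trend (adjusted p = 0.21), sgScramble replicate 1 (0.062) or sgNlrc5 replicate 2 (0.051), and Itgb1 stood at -0.20 with quantile normalisation. In TDM culture 0 of 9 other adhesion genes and 1 of 4 integrin genes, Itga4, passed.

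The melanocyte markers stood higher in the same TDMa libraries. Their summed level was 158050 to 159700 normalised counts with sgScramble and 217490 to 218280 with sgNlrc5. Of these markers 9 of 11 passed as higher, against 2100 of the 12138 genes tested. Of the few listed markers of other cell types, the endothelial sum was 635 to 692 with sgScramble and 1411 to 1479.5 with sgNlrc5, where Vwf rose by 1.27 on the log2 scale. The macrophage genes Cd68 and Lyz2 changed by 0.52 and -2.25, Lyz2 from a mean of 51.0 to 9.98 normalised counts. Lyz2 too met the minimum of 10 only through the sgScramble libraries. Of 4 fibroblast genes Col1a1 and Pdgfra fell by 1.32 and 0.75, and Col1a2 rose by 0.51, and the dendritic cell gene Batf3 fell by 0.41. The part of these genes or of the cells they mark in the fall of the NF-kB genes was not tested.

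**Figure D3:**
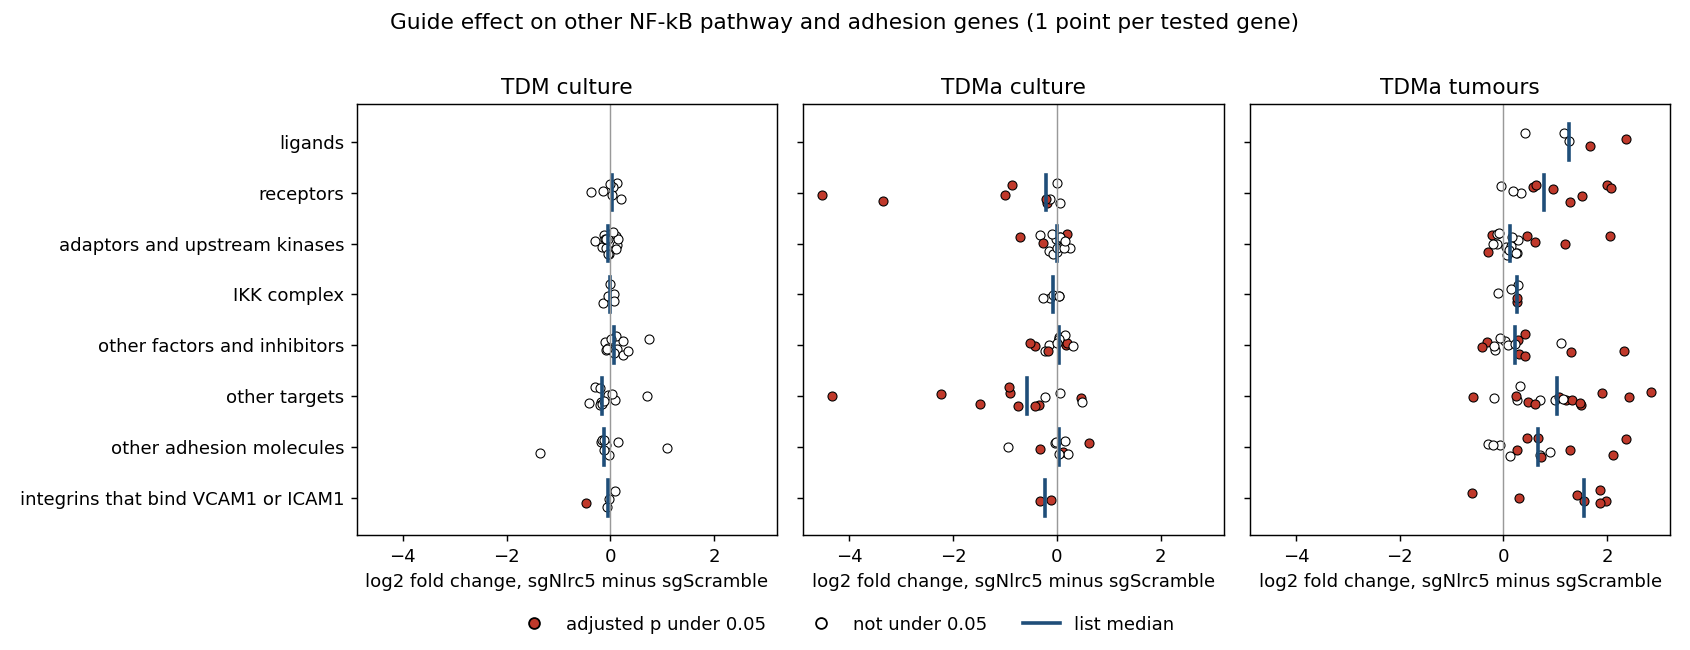
Log2 fold change, sgNlrc5 minus sgScramble (x axis), of the other pathway, adhesion and integrin genes by list (y axis), 1 point per tested gene, filled where the adjusted p was under 0.05, with a bar at the list median. In TDMa culture 6 receptor and 8 other target genes are filled below 0, and in tumours 7 and 11 are filled above 0.

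The guide effect was then compared between the lines, as an interaction over the 8 culture libraries. For 6 of 7 members it was lower in TDMa than in TDM cells, where 10.8% of 11492 genes passed in that direction. The difference was -1.16 for Relb (adjusted p = 0.0086), -1.15 for Nfkbiz (0.0035), -0.96 for Nfkbia (3.6e-05), -0.55 for Nfkb1 (1.5e-05), -0.48 for Nfkb2 (0.0028) and -0.38 for Rela (0.0050). For Tnfaip3 it was 0.55 (0.53). The Relb difference rested in part on TDM sgNlrc5 replicate 2, without which it was -0.76 (adjusted p = 0.083), and it missed the threshold without TDMa sgScramble replicate 1 (0.055). The Nfkbiz difference was -0.74 (0.059) without TDM sgScramble replicate 1, and that of Rela had an adjusted p of 0.054 without TDM sgScramble replicate 2.

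The third comparison set the guides against each other in TDMa tumours, and here the members went in both directions. A difference between factor genes and target genes was not tested. Vcam1, Icam1, Birc3, Nfkbiz and Tnfaip3 rose with sgNlrc5, Nfkb1 and Nfkb2 fell, and Rela, Relb and Nfkbia did not pass. Of the 10 members, 5 rose and 2 fell, in a table where 39.4% of 13385 genes passed (5268 genes), 19.7% as higher and 19.7% as lower. The share of members that fell was near that of all genes. All 4 sgNlrc5 tumours lay above all 4 sgScramble tumours for Nfkbiz, Birc3 and Vcam1, as they did for 18.1% of the genes tested. They lay below for Nfkb1 and Nfkb2, as for 19.1%. The median log2 fold change was 0.40 over the 10 members and -0.01 over all genes. In bulk tumours, fewer cells of a type and less RNA per cell cannot be told apart.

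Both adhesion genes among the members rose. Vcam1 stood at 122, 78.3, 70.6 and 119 normalised counts in sgScramble tumours 1 to 4 and at 397, 373, 426 and 195 in sgNlrc5 tumours 1 to 4. The lowest sgNlrc5 tumour, replicate 4, was still above every control. Its mean was 97.4 ± 26.8 with sgScramble and 348 ± 104 with sgNlrc5 (SD, n = 4 per guide), and its log2 fold change was 1.80 ± 0.26 (SE, adjusted p = 0.00031). Icam1, the ligand of the leukocyte integrin LFA-1, had 39.1, 24.8, 28.8 and 74.1 with sgScramble and 141, 119, 73.2 and 115 with sgNlrc5. The groups touched, since sgScramble replicate 4 lay above sgNlrc5 replicate 3. The fold change of Icam1 was 1.5 ± 0.32 (adjusted p = 0.0036).

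Birc3 and Nfkbiz rose in every sgNlrc5 tumour against every control. Birc3 had 9.19, 18.1, 40.8 and 30.9 normalised counts with sgScramble and 86.2, 67.6, 60.6 and 73.3 with sgNlrc5 (1.68 ± 0.38, adjusted p = 0.0046), from 8 to 86 reads per library. The controls were spread over a wider range, relative to their mean, than the sgNlrc5 tumours. Nfkbiz had 280.4, 292, 334 and 365 against 459, 532, 577 and 478 (0.69 ± 0.12, adjusted p = 9e-04).

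Tnfaip3 and Nfkbia were less clearly separated. Tnfaip3 had 156, 189, 205 and 238 normalised counts with sgScramble and 294, 225, 275 and 279 with sgNlrc5, and sgScramble replicate 4 lay above sgNlrc5 replicate 2. Its rise of 0.45 ± 0.15 passed (adjusted p = 0.028), but not without sgScramble replicate 1 (0.077) or 2 (0.063), or sgNlrc5 replicate 1 (0.065), 3 (0.052) or 4 (0.066). Nfkbia had 203, 264, 274 and 354 against 342, 374, 339 and 321 (0.35 ± 0.15, adjusted p = 0.080, 95% interval 0.03 to 0.68). In Nfkbia the sgScramble replicate 4 exceeded 3 of the 4 sgNlrc5 tumours. Without that library the difference was 0.48 and passed (adjusted p = 0.015).

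Of the Rel factors in tumours, Nfkb1 had 771, 902, 873 and 826 normalised counts with sgScramble and 619, 657, 672 and 721 with sgNlrc5 (-0.34 ± 0.09, adjusted p = 0.0094). Nfkb2 had 655, 717, 673 and 625 against 492, 550.2, 579 and 475 (-0.35 ± 0.09, adjusted p = 0.011). In both genes every sgNlrc5 tumour lay below every control. Rela had 714, 729, 633 and 715 against 708, 602, 756 and 731, a difference of -0.00052 with a 95% interval of -0.21 to 0.21. Relb had 123, 145, 138 and 143 against 110.3, 125, 152 and 127 (-0.10 ± 0.14, adjusted p = 0.61, 95% interval -0.41 to 0.21). In Rela and Relb the guides overlapped.

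Other genes of the pathway were mostly higher in sgNlrc5 tumours where they passed. Over all genes 39.4% passed, and 19.7% passed as higher. Of 5 tested ligand genes 2 rose: Tnf, from a mean of 18.5 to 50.5 normalised counts (1.67 ± 0.45), and Ltb, which encodes lymphotoxin beta, from 8.73 to 49.2 (2.37 ± 0.65). Of 10 receptor genes 7 rose and 0 fell (median 0.78). They included Tnfrsf1b, the second TNF receptor (136 to 548, 2.08 ± 0.22), the bacterial lipoprotein sensor Tlr2 (1.52 ± 0.23) and Tlr3 (662 to 1270.5, 0.94 ± 0.14), which had fallen in TDMa culture. Of 18 other targets 11 rose and 1 fell (median 1.03), among them Nos2, the inducible nitric oxide synthase (71.6 to 443, 2.85 ± 0.34), Csf1 (232 to 647, 1.49 ± 0.17) and Gadd45b (87.4 to 182, 1.06 ± 0.15). Where a mean of at least 50 was required, 0 ligand, 5 receptor and 9 other target genes rose.

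The signalling genes between them had medians nearer 0, and the adaptors and IKK genes passed at shares below or near the 39.4% of all genes. Of 19 adaptors and upstream kinases 4 rose and 2 fell (median 0.13), with Traf1 at 2.04, Traf5 at 1.18 (0.77 with quantile normalisation) and Sharpin, a subunit of the linear ubiquitin ligase, at 0.45. Of 15 other factors and inhibitors 6 rose and 2 fell (median 0.22): Nfkbid, an atypical IkB gene, changed by 2.33 from a mean of 3.52 normalised counts, Tnip1 by 0.41 and Tax1bp1 by -0.41. Nfkbid, Nlrc3, Ltb and, of the other targets, Saa3 had control means under 10 normalised counts. They were counted as rising but met the minimum only through the sgNlrc5 tumours. Of 5 IKK genes 2 rose, Tbk1 and Ikbke, each by 0.26, and neither passed with equal sums (adjusted p = 0.058 and 0.070). Tbk1 was lost without sgScramble replicate 1 or 3 or sgNlrc5 replicate 2, 3 or 4 (0.053 to 0.090). Ikbke was lost without sgScramble replicate 1, 2 or 3 or sgNlrc5 replicate 1, 2 or 4 (0.068 to 0.11).

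Genes of the integrins that bind VCAM1 or ICAM1 changed as well, in a table where 19.7% of genes passed as higher. Of 7 integrin genes 6 rose (median 1.56), and 1 of these, Itgb1, had been abundant in cultured cells too. Itgb2, the beta subunit of LFA-1, went from 267 to 1029 normalised counts (1.98 ± 0.19), Itgam from 54.5 to 157 (1.56 ± 0.21) and Itgb7 from 40.1 to 137 (1.86 ± 0.28). The 1 that fell, named after its value was seen, was Itga4, from 1141 to 742 (-0.61 ± 0.10, adjusted p = 0.00088). It had been lower in culture as well. Of 13 other adhesion genes 7 rose and 0 fell (median 0.67), including L1cam (57.2 to 303, 2.35 ± 0.24), Icam2 (12.96 to 56.8, 2.12 ± 0.32) and F11r, a junctional adhesion molecule (643 to 1025.5, 0.67 ± 0.12).

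Macrophage and T cell markers stood higher in the same sgNlrc5 tumours, in a table where 19.7% of genes passed as higher and 19.7% as lower. The summed level of the macrophage and monocyte markers was 4452 to 7062 normalised counts with sgScramble and 14952 to 20899 with sgNlrc5, and 10 of 10 rose, Itgam among them. The T cell markers summed to 109 to 170 against 391.5 to 1464, and 10 of 10 rose, or 3 where a mean of at least 50 was required. The T cell genes Cd3d, Cd3e, Cd3g, Cd2, Cd4, Trac and Trbc2 had control means under 10 normalised counts. They met the minimum of 10 only through the sgNlrc5 tumours, as did the NK cell gene Eomes. The sums with sgScramble and sgNlrc5 were, for NK cell markers, 11.5 to 44.1 against 63.3 to 168, for neutrophil markers 13.4 to 64.4 against 73.2 to 129, for dendritic cell markers 224 to 268 against 355 to 574, and for B cell markers 14.1 to 22.9 against 22.5 to 62.3. Of these lists the table held 3 of 5 NK cell, 2 of 5 neutrophil, 7 of 7 dendritic cell and 3 of 5 B cell genes. Of those tested, 2 of 2 NK cell, 1 of 1 neutrophil, 1 of 4 dendritic cell and 0 of 1 B cell genes rose, and the B cell sums overlapped. The dendritic cell gene that rose was Itgax (50.3 to 203 normalised counts), while Zbtb46 and Batf3 stood at -0.03 and 0.07 on the log2 scale. Ccr7 stood at 1.05 and did not pass (adjusted p = 0.071). Xcr1 (3.16 to 15.6 normalised counts), Clec9a (2.79 to 15.4) and Flt3 (5.31 to 8.12) had higher means with sgNlrc5 but were too low to be tested. Endothelial markers overlapped, at 4221 to 5334 against 4269 to 5728, with 0 of 5 tested passing, and most of that sum was Vwf. Vwf was also present in TDMa culture, at means of 530 and 1282 normalised counts with sgScramble and sgNlrc5. On the log2 scale the tested endothelial genes stood at -0.20 for Pecam1, 0.03 for Vwf, 0.56 for Egfl7, 0.90 for Cdh5 and 1.15 for Kdr. Pecam1 had tumour means of 43.5 and 40.7 normalised counts with sgScramble and sgNlrc5. Fibroblast and pericyte markers also overlapped, at 316 to 889 against 647 to 813. Of 8 tested 3 rose and 1 fell, where 39.4% of all genes passed. Col1a1 rose by 0.82, Col1a2 by 1.05 and Pdgfrb by 0.95, and Pdgfra fell by 1.35. Melanocyte marker sums overlapped too, at 598310 to 671770 with sgScramble against 648890 to 1036800 with sgNlrc5. Of 11 tested melanocyte genes 6 rose and 1 fell, with Oca2 at 1.57 and Tyr at -0.95 on the log2 scale. The part of these cells in the rise of Vcam1, Icam1, Birc3, Nfkbiz, Tnfaip3 and the pathway genes was not tested.

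**Figure D4:**
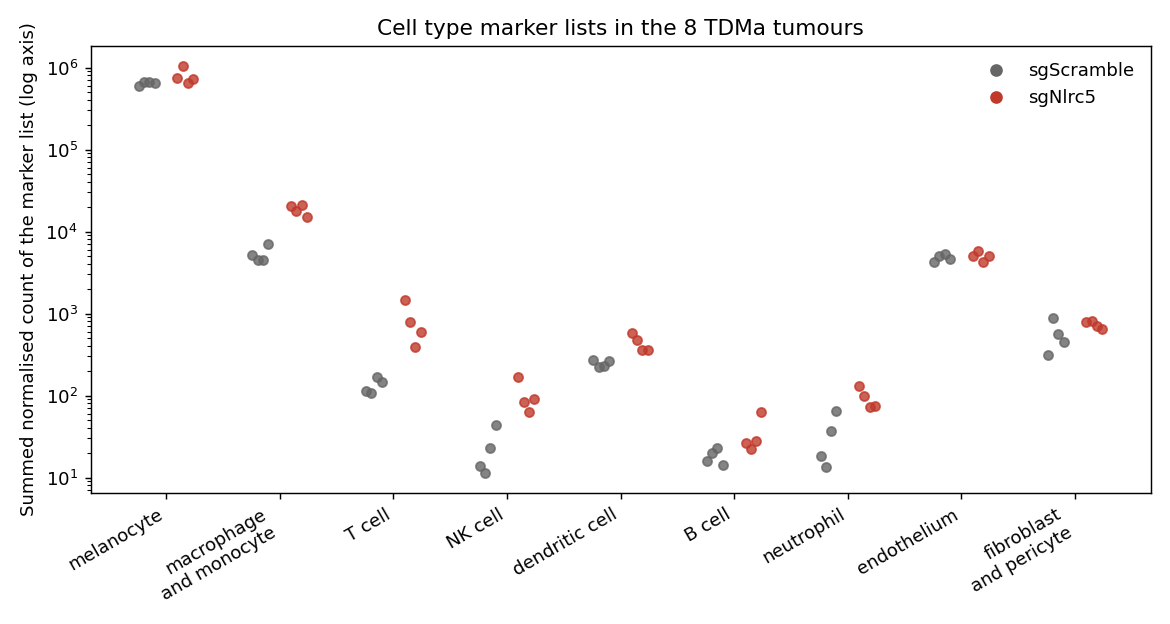
Summed normalised counts of 9 marker lists (x axis) in each of the 8 TDMa tumours, on a log10 axis, with grey points for sgScramble and red points for sgNlrc5. Macrophage, T cell, NK cell, neutrophil and dendritic cell sums do not overlap between guides, while melanocyte, B cell, endothelial and fibroblast sums do.

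The guide effect in tumours was then compared with that in cultured TDMa cells, as an interaction over the 12 TDMa libraries. It shares the TDMa culture libraries with the comparison between lines. For 5 of the 7 members listed in both tables the effect was higher in tumours, where 15% of 11782 genes passed in that direction. Nfkbiz fell by 1.07 on the log2 scale in culture and rose by 0.69 in tumours, a difference of 1.76 (adjusted p = 1.1e-06). Nfkbia stood at -1.08 and 0.35, a difference of 1.43 (1.8e-05). Relb and Tnfaip3 differed by 1.09 (0.00043) and 1.01 (0.0013). Rela differed by 0.33 (0.035), which did not hold without array weights (adjusted p = 0.12) or with a replicate block (0.076). It was also lost without tumour sgScramble replicate 3 (0.083), tumour sgNlrc5 replicate 1, 3 or 4 (0.052, 0.068 and 0.072), culture sgScramble replicate 1 (0.11) or culture sgNlrc5 replicate 1 (0.083).

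For Nfkb1 and Nfkb2 no difference between tumours and culture passed, at 0.14 (adjusted p = 0.31) and 0.07 (adjusted p = 0.70). Both genes fell with sgNlrc5 in culture and in tumours. The median difference was 1.01 over the 7 members and -0.07 over all genes.

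Levels were also set side by side across groups, as RPM, a gene's share of the library's recovered reads over the 12284 genes listed in all 3 tables, scaled to a common total. Since each table was normalised alone these were not tested. Nfkb1 was ordered by group: 134 and 128 RPM with sgNlrc5 and sgScramble in TDM culture, 96.1 and 66.6 with sgScramble and sgNlrc5 in TDMa culture, then 59.0 and 46.3 in tumours. Only the TDM guides overlapped. Tnfaip3 had the opposite order, from 0.65 and 1.49 in TDM culture with sgNlrc5 and sgScramble, through 1.75 and 2.7 in TDMa culture, to 13.8 and 18.7 in tumours with sgScramble and sgNlrc5, where the 2 tumour groups overlapped.

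Nfkbiz and Relb were low in TDM culture. Nfkbiz stood there at 5.24 and 5.29 RPM with sgScramble and sgNlrc5, at 11.8 in TDMa culture with sgNlrc5, at 22.2 in sgScramble tumours and 25.7 in TDMa culture with sgScramble, which overlapped, and at 35.5 in sgNlrc5 tumours. Relb stood at 4.87 and 4.92 in TDM culture and at 5.32 in TDMa culture with sgNlrc5, each overlapping its neighbour in that order, at 8.92 and 9.61 in sgNlrc5 and sgScramble tumours, and at 12.7 in TDMa culture with sgScramble. The Relb level of TDMa cells with sgNlrc5 lay within the range of TDM cells with sgNlrc5 and above that of TDM cells with sgScramble. Nfkbia ran from 13.8 in TDMa culture with sgNlrc5 to 30.4 with sgScramble, with each neighbour in that order overlapping the next.

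Nfkb2 and Rela varied least across groups. Nfkb2 ran from 36.3 RPM in sgNlrc5 tumours and 38.6 in TDMa culture with sgNlrc5, which overlapped, to 46.7 to 53.4 in the other groups, each overlapping the next. Rela was highest in TDMa culture with sgScramble at 71.2, stood at 59.2 and 60.9 in TDM culture and 54.8 in TDMa culture with sgNlrc5, and was lowest in tumours at 48.6 and 48.8.

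Across the 8 tumours, after each guide's mean was subtracted, the genes most like 3 of the members were read off among 10889 genes with a mean of at least 50 normalised counts. These correlations describe log2 values over 8 libraries that share normalisation and tumour composition, and the highest of so many genes is high by selection. Nfkbia was most like Phlda1 (Pearson r = 0.982), Vamp8 (0.974) and F10 (0.968). Vcam1 was most like Ppia (0.985), Slc25a3 (0.967) and Secisbp2 (0.966). Icam1 was most like Med21 (0.986), Dram1 (0.982) and Ms4a6c (0.967).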

How the data were processed

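RNA sequencing values were used for 16 libraries. The deposited values are log2 of a normalised count plus 1, per the file headers and labels, in 3 tables that were each normalised alone. Per the submitters' processing notes, the tools were DESeq2 1.36.0, FastQC 0.12.0 and STAR 2.7.10a, with GRCm39 (mm39) as build, and no roles are stated. How genes were counted, annotated and filtered was not given in the sources used here. Per the labels' protocols, total RNA went into a stranded kit (NEBNext Ultra II Directional).

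Low values were whole multiples of 1 step in every library (100% within 0.1 of a whole read up to 2000 multiples), which gave the reads. The lowest total of a listed gene was 20 reads in each culture table and 40 in tumours.

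Each table was fitted alone in R 4.3.3 with limma 3.58.1, using log2(normalised count + 1), variances moderated along an intensity trend, two-sided, for genes with a mean of at least 10. Differences between groups were limma interaction terms with array weights by table. The fits were also run on simulated counts. These had less spread between libraries than Vcam1 or Birc3 had in tumours. They also held far fewer changed genes than were called in TDMa culture or tumours, so they cannot vouch for the calls there. Replicate numbers did not pair the samples (the check is given with the alternatives).

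The alternatives were pseudocounts of 0.5 and 5, no filter or a mean of at least 50, quantile normalisation, equal sums, no trend, voom on recovered reads, no array weights, a replicate block and leaving out each library. The members and gene lists were chosen with earlier results of these data known. Named were all members, Nlrc5 and, of each list, up to 3 passing genes with the smallest p. For Nfkbia, Vcam1 and Icam1 the 3 genes most correlated over tumours were also named.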

Additional observations from a re-analysis of the deposited data

Results flagged for a closer look

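In 20 groups of 4 tumour libraries, 1 held a value far from the others by Dixon's test: Rela in sgScramble replicate 3, at 633 normalised counts against 714 to 729 in the other control tumours. Chance gives about 1 in 20.

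The guide effect differed between the lines for 6 members. As TDMa minus TDM culture on the log2 scale, the differences were -0.55 for Nfkb1, -0.48 for Nfkb2, -0.38 for Rela, -1.16 for Relb, -0.96 for Nfkbia and -1.15 for Nfkbiz. Between tumours and culture of TDMa cells it differed for 5: by 0.33 for Rela, 1.09 for Relb, 1.43 for Nfkbia, 1.76 for Nfkbiz and 1.01 for Tnfaip3. The interaction tests behind these 11 values are in the report, and both sets use the TDMa culture libraries.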

How the results depend on the processing

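The count of members that passed was 0 in TDM culture and 6 in TDMa culture under every alternative run, and 6 to 8 in tumours. The 6 in TDMa culture were not always the same genes. Without the intensity trend Rela did not pass (adjusted p = 0.051) and Tnfaip3 did (adjusted p = 0.026). The counts over all genes depended on the intensity trend: without it there were 2 genes called in TDM culture, against 62, and 1581 genes called in TDMa culture, against 4156. For the difference between the lines there were 1186, against 2610. The TDM count ran from 72 to 130 when 1 library was left out. The count for tumours minus culture was 2799 without array weights, against 4311. With equal sums the TDMa culture split was 1643 higher and 2587 lower, against 2100 and 2056. Signs that turned were of values near 0 that did not pass. Leaving out 1 library gave a range of -0.049 to 0.17 for Nfkb2, -0.0039 to 0.10 for Rela, -0.43 to 0.36 for Relb and -0.34 to 0.49 for Nfkbiz in TDM culture. Rela in tumours ran from -0.046 to 0.070 in this way, and was 0.041 with quantile normalisation. Without the intensity trend the differences between lines for Nfkb2, Relb and Nfkbiz had adjusted p = 0.061, 0.084 and 0.097. The cause of these changes was not tested. Over single genes and differences, 1099 values kept direction and side of the threshold, 66 lost and 2 gained a call, and 9 turned sign.

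Same-numbered libraries did not deviate together (correlations of -0.02 in each culture group and -0.21 to 0.11 in tumours). With a replicate block there were 122 genes called in TDM culture, 4433 genes called in TDMa culture and 4533 genes called in TDMa tumours, and the Rela difference between tumours and culture then had adjusted p = 0.076. Tnfaip3 in culture rests on 7 to 38 reads per library, which limits its precision.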
